A study of Mus musculus with 6 samples.

Results

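The 10 genes described here encode the enzymes that build serine and that carry its one-carbon unit through the folate pathway, together with Aldh18a1 of proline synthesis. They were 10 of the 25230 genes in the deposited table and were taken from it by symbol, with 1 row for each. The members were chosen by their lesion and normal levels, around Phgdh and Psat1, because both were nearly silent in normal liver regions and high in lesions, and the other 8 genes are their neighbours in the pathway. The lesion against normal contrast therefore chose the members, and their values in it are a description with no test. A test across the table reached 9 of the 10 members, since Mthfd2l had too few counts to pass edgeR's expression filter, and 12506 genes in all.

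Serine is made from the glycolytic intermediate 3-phosphoglycerate, which PHGDH oxidises, PSAT1 transaminates and PSPH dephosphorylates. The SHMT enzymes then split serine into glycine and a one-carbon unit held on folate, SHMT1 in the cytosol and SHMT2 in mitochondria. In mitochondria MTHFD2 or MTHFD2L oxidises that unit and MTHFD1L releases it as formate, and cytosolic MTHFD1 takes formate up again for the synthesis of purines, thymidylate and methionine. In rat liver the serine synthesis enzymes are known to be low on ordinary diets, and in cultured cells the transcription factor ATF4 is known to switch on several of these genes during amino acid shortage.

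RNA was sequenced from 6 pieces of liver of male C57BL/6 mice at an age label of 7 months. Every mouse was given DEN (diethylnitrosamine, a liver carcinogen) when 14 days old, at 25 mg/kg, so both groups are carcinogen-exposed liver. The 3 lesion regions are small early tumour regions with stacked glycogen, and the 3 normal regions are the normal tissue adjacent to such lesions. Regions were cut from fixed, paraffin-embedded sections with a millisection instrument. The labels do not say which mouse a region came from, so the errors below measure the spread between these samples and are too small if regions share a mouse.

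Normal libraries held between 6352898 and 6542997 counts, and lesion libraries between 7294716 and 7412833. Lesion 3 stood apart from lesions 1 and 2: in log2 CPM (counts scaled to a common library size) the second principal component, which took 13% of the variance, put it at -25.4 against 11.4 and 12.4. Lesions 1 and 2 differed by 1.57 times the variance of read sampling over genes, and normal regions 2 and 3 by 1.37 times, normal region 1 from these by 3.13 and 3.35 times, against 11.1 and 11.2 times for lesion 3 with either of the others. Of 9 hepatocyte markers 3 were higher (Alb, Apoa1 and Ahsg), 3 lower (Ttr, Apoa2 and Apob) and 3 did not pass. Their sums were 69574 to 74347 CPM in normal regions and 119511 to 141675 CPM in lesions. Alb alone went from a mean of 34156 to 82269 CPM and made up most of that rise, while the median log2 fold change of the 9 was -0.07. All 10 Kupffer cell and macrophage markers were lower in the lesions, with summed levels of 967.6 to 1024 CPM in normal regions and 622.0 to 670.8 CPM in lesions. Of 13 tested proliferation markers 12 were higher, with sums of 55.9 to 63.0 and 137.1 to 213.3 CPM. Of 4 tested biliary markers 3 were higher, Sox9 and Spp1 among them, with sums over 10 genes of 50.6 to 52.3 and 159.1 to 201.4 CPM and Cftr at 0 in all normal libraries. Spp1 alone went from 17.8 to 123.4 CPM and made up most of that rise, while Krt19, Krt7, Epcam, Cldn7 and Sctr had means under 1 CPM in both groups. Of 10 endothelial markers 2 were higher, of 10 stellate cell markers 4 were higher and 1 lower, and of 3 tested lymphocyte markers 1 was lower. Over all tested genes 18.7% were higher and 18.4% lower. The part of these cell types in the results on serine and folate genes was not tested, and in bulk RNA fewer cells of a type and less RNA per cell cannot be told apart.

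The first 2 steps of serine synthesis showed the widest differences among the 10 genes, and their order rests on lesions 1 and 2. Phgdh (Entrez 236539, chromosome 3, 98313171 to 98339969, mm10), the dehydrogenase that commits carbon from glycolysis to serine, stood at 0.302, 0.147 and 0.872 CPM in normal regions 1 to 3. In lesions 1 to 3 it stood at 38.7, 32.3 and 10.8 CPM. Every lesion library was far above every normal library, and lesion 3 was clearly below the other two. The fitted log2 fold change was 5.89 (SE 1.01, n = 3 per group). The normal regions together held 9 Phgdh counts (exact Poisson 95% interval 4.12 to 17.1) and the lesions 577, a ratio of 62.0-fold with an exact (Clopper-Pearson) 95% interval of 32.4 to 136.3. These intervals cover counting error only and leave out the spread between libraries. The labels name no molecular identifiers, so reads copied in PCR could make the intervals too narrow. Normal region 3 alone gave 6 of the 9 normal counts, and without it the log2 fold change was 6.82, against 5.69 and 5.48 without normal region 1 or 2.

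Psat1 (Entrez 107272, chromosome 19, 15905123 to 15925059), the aminotransferase of the second step, stood at 0.302, 0.587 and 0.872 CPM in normal regions and at 21.7, 23.8 and 13.3 CPM in lesions. Its groups did not overlap, and lesion 3 was again the lowest lesion. The log2 fold change was 5.01 (SE 0.34), from 12 normal and 413 lesion counts, a ratio of 33.3-fold (95% interval 18.9 to 65.0).

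Psph (Entrez 100678, chromosome 5, 129765558 to 129787443), the phosphatase that releases serine, had the highest normal level of the 3. It stood at 2.87, 1.47 and 2.76 CPM in normal regions and at 8.26, 8.68 and 10.7 CPM in lesions, with a log2 fold change of 1.95 (SE 0.25). The groups did not overlap, and here lesion 3 was the highest lesion. Psph overlaps Cct6a on the opposite strand, and since the counting is not stated to use strand, reads of the pair cannot be told apart there. The balance of the 3 enzymes was different in the 2 groups. Per length, in FPKM (fragments scaled by gene length and library), Phgdh stood at 0.0865, 0.0821 and 0.259 of the Psph level in normal regions. In lesions it stood at 3.85, 3.06 and 0.833 of that level. The Phgdh to Psat1 ratio, by contrast, overlapped between the groups, at 1.33, 0.333 and 1.33 in normal regions and 2.38, 1.81 and 1.08 in lesions.

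The promoters of the 3 synthesis genes are shown because their transcripts were all higher in the lesions, from 250 bases before to 50 bases after the RefSeq start site (GRCm38.p6, the assembly behind mm10; all 3 genes lie on the minus strand and are printed 5′ to 3′ in the direction of transcription). Capitals mark a match to TGACNNNGC, the core of the antioxidant response element, on the opposite strand. Psat1 has 2 RefSeq promoters. The other, chr19:15924573-15924872, is not printed and held none of the motifs searched below.
Phgdh promoter, chr3:98339920-98340219: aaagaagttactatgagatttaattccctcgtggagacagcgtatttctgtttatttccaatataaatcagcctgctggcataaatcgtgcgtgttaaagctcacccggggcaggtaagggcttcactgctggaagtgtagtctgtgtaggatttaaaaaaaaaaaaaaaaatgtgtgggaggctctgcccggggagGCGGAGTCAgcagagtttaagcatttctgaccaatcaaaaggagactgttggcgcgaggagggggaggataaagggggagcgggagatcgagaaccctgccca
Psat1 promoter, chr19:15925010-15925309: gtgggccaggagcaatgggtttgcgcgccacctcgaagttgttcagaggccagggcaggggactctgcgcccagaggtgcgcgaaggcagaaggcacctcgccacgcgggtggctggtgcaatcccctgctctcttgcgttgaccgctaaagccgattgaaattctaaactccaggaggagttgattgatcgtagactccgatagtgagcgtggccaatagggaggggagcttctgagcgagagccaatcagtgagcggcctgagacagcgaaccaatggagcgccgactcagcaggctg
Psph promoter, chr5:129787204-129787503: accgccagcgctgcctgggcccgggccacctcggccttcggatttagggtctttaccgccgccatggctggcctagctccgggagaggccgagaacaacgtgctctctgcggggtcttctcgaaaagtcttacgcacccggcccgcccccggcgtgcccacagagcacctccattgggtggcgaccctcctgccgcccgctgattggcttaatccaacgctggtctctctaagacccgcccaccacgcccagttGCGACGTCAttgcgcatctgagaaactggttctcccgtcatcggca
The search covered 3 motifs on both strands of the 11 RefSeq promoters of the 10 members: TGATGNAA, the composite element bound by ATF4 with C/EBP proteins, TGACNNNGC, and the E-box CACGTG. The ATF4 letters were in 0 of the 11 promoters and in 3.97% of all 32851 promoters in the table. The antioxidant letters were in 2 members' promoters, Phgdh at position -53 and Psph at position 5 from the start site, against 12.4% of all promoters. The E-box was in 1, Aldh18a1 at position -59, against 7.15% of all promoters. No match overlapped another. These are matches of letters in a short window and say nothing on binding.

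**Figure D1:**
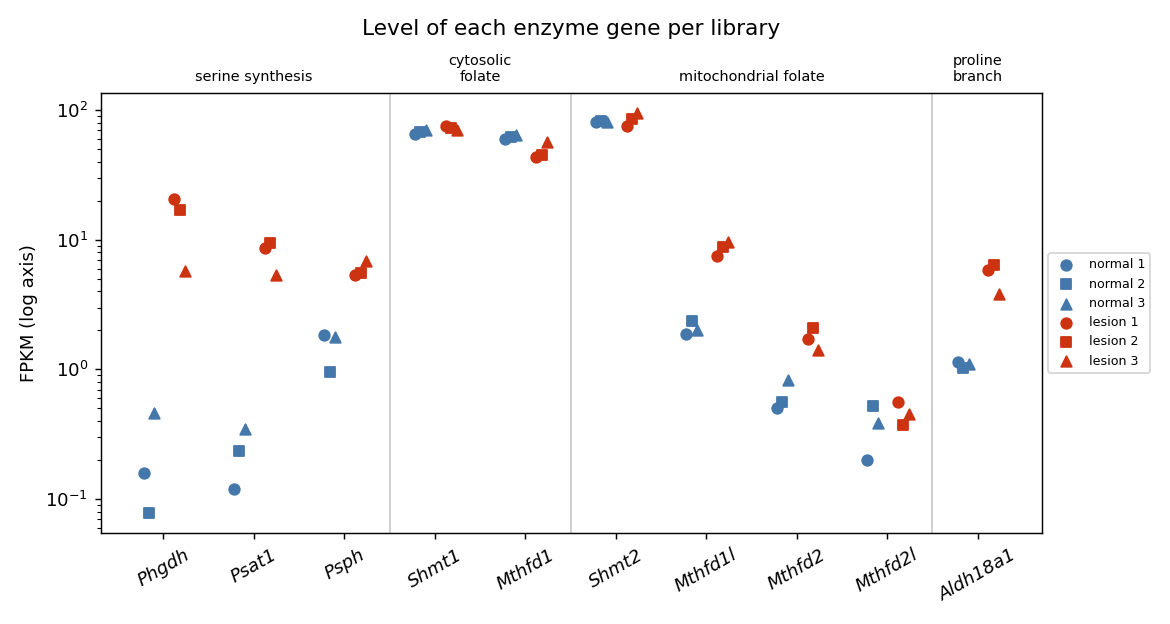
FPKM of each gene in each library on a log axis, with normal regions in blue, lesions in red and the marker shape giving the replicate number. Phgdh and Psat1 go from the lowest places in normal regions (means of 0.233 and 0.234 FPKM) to 14.4 and 7.79 FPKM in lesions, while Shmt1, Mthfd1 and Shmt2 stay at the top in both groups.

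In the cytosol, neither folate gene showed a change of that size. Shmt1 (Entrez 20425, chromosome 11, 60788897 to 60811265), the serine hydroxymethyltransferase of the cytosol, stood at 135.4, 141.7 and 145.7 CPM in normal regions and at 158.0, 151.8 and 146.9 CPM in lesions. The groups just failed to overlap, with lesion 3 next to normal region 3, and the log2 fold change was 0.11 (SE 0.06). On the scale of library size alone it was -0.03, so its sign depends on the scaling. Shmt1 overlaps Smcr8 on the opposite strand. Mthfd1 (Entrez 108156, chromosome 12, 76254406 to 76319820), the trifunctional enzyme that interconverts the folate one-carbon forms, was lower. It stood at 200.3, 208.4 and 213.3 CPM in normal regions and at 145.2, 152.6 and 189.5 CPM in lesions, with a log2 fold change of -0.35 (SE 0.08). All lesions lay below all normal regions, and lesion 3 was nearest to them.

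The mitochondrial branch split into an abundant gene near its normal level and 2 scarce genes that were higher. Shmt2 (Entrez 108037, chromosome 10, 127517123 to 127522444), the mitochondrial hydroxymethyltransferase, stood at 187.9, 192.5 and 189.6 CPM in normal regions and at 176.5, 198.5 and 220.5 CPM in lesions. The normal values fell inside the lesion range, and the log2 fold change was 0.06 (SE 0.07), -0.08 when scaled by library size alone and -0.02 without lesion 3. Mthfd1l (Entrez 270685, chromosome 10, 3972892 to 4167081), which frees formate for export to the cytosol, stood at 8.16, 10.3 and 8.86 CPM in normal regions and at 32.9, 38.4 and 41.9 CPM in lesions. Its log2 fold change was 2.05 (SE 0.13), and it was the most even of the higher genes across the lesions. Mthfd2 (Entrez 17768, chromosome 6, 83305704 to 83326011), the dehydrogenase and cyclohydrolase known for its expression in embryos and tumours, stood at 1.06, 1.17 and 1.74 CPM in normal regions and at 3.56, 4.34 and 2.93 CPM in lesions. The groups did not overlap and the log2 fold change was 1.43 (SE 0.34), from 27 normal and 76 lesion counts.

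Mthfd2l (Entrez 665563, chromosome 5, 90930873 to 91021368), the other mitochondrial dehydrogenase and cyclohydrolase, was near the limit of detection in every library. It had 3, 8 and 6 counts in normal regions and 9, 6 and 7 in lesions, so the groups overlapped. The ratio of lesion to normal was 1.25 with an exact 95% interval of 0.635 to 2.51, and a difference within that interval was not detectable at this depth. Per length, Mthfd2 stood at 2.53, 1.08 and 2.17 times the level of Mthfd2l in normal regions and at 3.01, 5.60 and 3.10 times in lesions.

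Aldh18a1 (Entrez 56454, chromosome 19, 40550257 to 40588463) makes pyrroline-5-carboxylate from glutamate, the committed step of proline synthesis, and is no folate enzyme. It stood at 4.08, 3.67 and 3.92 CPM in normal regions and at 20.7, 22.7 and 13.6 CPM in lesions, a log2 fold change of 2.28 (SE 0.21). The 3 lesions kept the order of Psat1, with lesion 2 highest and lesion 3 lowest. Per length, Aldh18a1 stood at 9.53, 4.41 and 3.18 times the Psat1 level in normal regions and at 0.674, 0.673 and 0.722 times in lesions, without overlap.

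Counted over the whole table with edgeR at an adjusted p under 0.05, 6 of the 9 tested members were higher, 1 (Mthfd1) was lower and 2 (Shmt1 and Shmt2) did not pass. Over all tested genes 18.7% were higher and 18.4% lower under the same rule. Scaled by library size alone, 1474 were higher and 3615 lower in place of 2340 and 2296, and the median log2 fold change of all genes moved to -0.14. All lesion libraries lay above all normal libraries in 7 of the 9 members and below them in 1, against 24.2% and 24% of all tested genes. Because this contrast chose the members, nothing is read from these shares. The median log2 fold change was 1.95 over the 9 tested members and 0.0031 over all tested genes. By step, the median was 5.01 in serine synthesis, -0.12 in the 2 cytosolic folate genes and 1.43 in the 3 tested mitochondrial folate genes. Phgdh left the count of higher genes without normal region 1, 2 or 3, and Shmt1 joined it without lesion 3 (log2 fold change 0.13).

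Per length, the order of levels changed at its lower end. In normal regions the 3 highest were Shmt2 at 81.8 ± 1.12 FPKM (SD, n = 3), Shmt1 at 67.7 ± 2.55 and Mthfd1 at 61.9 ± 2.02, and each was above the next by more than its spread. A wide gap separated them from Mthfd1l at 2.08 ± 0.25, Psph at 1.53 ± 0.502 and Aldh18a1 at 1.09 ± 0.0566 FPKM. Mthfd2 followed at 0.635 ± 0.176 and Mthfd2l at 0.368 ± 0.161, with Psat1 and Phgdh last. The SDs of Mthfd1l and Psph overlapped, as did those of Psph and Aldh18a1, of Mthfd2 and Mthfd2l, and of the last 3 genes. In lesions Shmt2 (85.3 ± 9.64), Shmt1 (73.0 ± 2.54) and Mthfd1 (48.4 ± 7.21) kept the top places. Phgdh came next at 14.4 ± 7.72 FPKM, then Mthfd1l at 8.63 ± 1.05, Psat1 at 7.79 ± 2.18, Psph at 5.94 ± 0.85 and Aldh18a1 at 5.33 ± 1.32. The SDs of Phgdh, Mthfd1l and Psat1 overlapped, as did those of Psat1, Psph and Aldh18a1, so their order in lesions is not resolved. Mthfd2 at 1.73 ± 0.334 and Mthfd2l at 0.463 ± 0.0982 FPKM came last.

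Summed over the 3 enzymes, serine synthesis transcripts went from 2.13, 1.26 and 2.59 FPKM in normal regions to 34.4, 32.1 and 18 FPKM in lesions. The 2 cytosolic folate genes summed to 124.7, 130.5 and 133.7 FPKM in normal regions and 119.0, 118.0 and 127.4 FPKM in lesions, with overlap. The 4 mitochondrial folate genes summed to 83.3, 86.4 and 84.9 FPKM in normal regions and 85.6, 96.3 and 106.6 FPKM in lesions, a sum that Shmt2 dominates. The Shmt2 to Shmt1 ratio per length was 1.2 in each normal region and 1.0, 1.2 and 1.3 in lesions, so the balance of the mitochondrial and cytosolic forms overlapped between the groups. The Mthfd1l to Mthfd1 ratio did not overlap, at 0.0313, 0.0379 and 0.0319 in normal regions and 0.174, 0.193 and 0.169 in lesions.

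Lesion 3 was at an extreme of the 3 lesions in all 9 tested members. It was the lowest lesion in 5 (Phgdh, Psat1, Mthfd2, Aldh18a1 and Shmt1) and the highest in 4 (Psph, Mthfd1, Shmt2 and Mthfd1l). Over all tested genes it was the lowest in 38.2% and the highest in 38%. With 3 lesions each gene puts 2 of them at an extreme, so such a place is common for any library. Among the 2340 genes higher in lesions it was the lowest in 49.5% and the highest in 32.5%. The mean of lesions 1 and 2 was 3.28 times lesion 3 for Phgdh, 1.71 times for Psat1, 1.59 times for Aldh18a1 and 1.35 times for Mthfd2, against 0.793 for Psph and 0.851 for Mthfd1l. The summed proliferation markers were also lowest in lesion 3, at 137.1 CPM against 213.3 and 210.0 CPM, and their part in this pattern was not tested. A single library on one side allows no test of the difference.

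**Figure D2:**
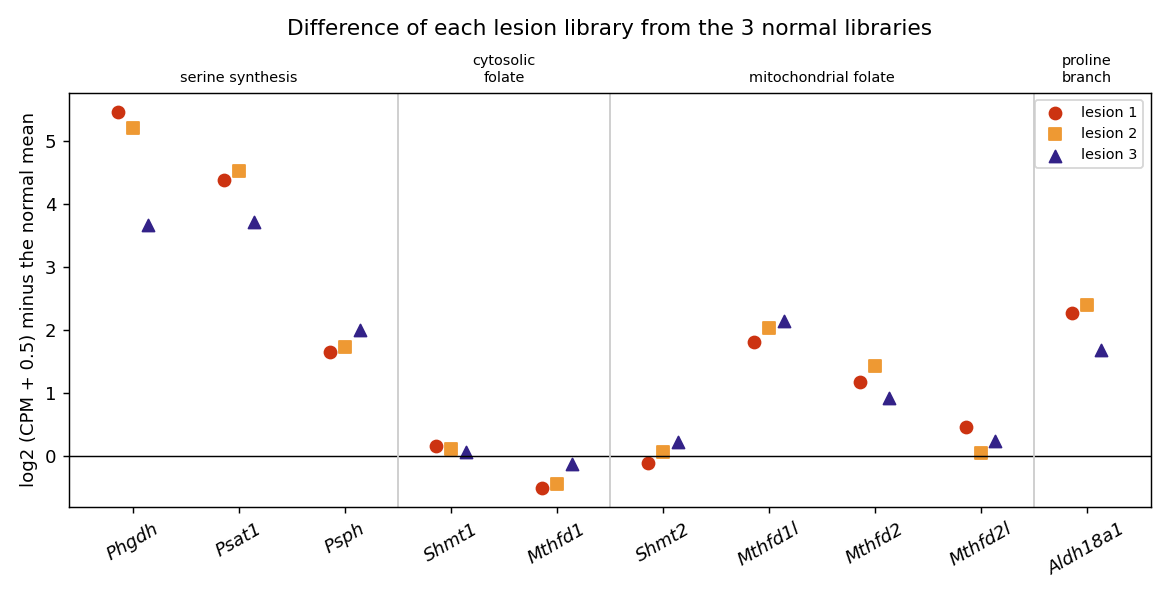
Difference of each lesion library from the mean of the 3 normal libraries, as log2 of CPM plus 0.5, for each gene ordered by step. Lesion 3 (triangles) lies below the others for Phgdh (3.67 against 5.46 and 5.20), Psat1 and Aldh18a1, and above them for Psph and Mthfd1l.

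The wider pathway was read from 8 lists of 109 distinct genes outside the members. Of these 103 were tested, 23 were higher and 33 lower (13 and 44 when scaled by library size alone). Over all tested genes 18.7% were higher and 18.4% lower, the shares to set beside each list below. Of 16 other folate enzymes and carriers tested, 2 were lower and 14 did not pass, with a median log2 fold change of -0.07. Without lesion 3, 6 genes of the full list were lower and 1 was higher. The higher gene was Aldh1l2, which is not among the 16 of the main test. Scaled by library size alone, 4 were lower. The salvage genes Mthfs and Mthfsl did not pass (edgeR adjusted p = 0.563 and 0.318). Without lesion 3 Mthfsl passed as lower, at a log2 fold change of -0.77 (edgeR adjusted p = 0.00283, over all alternatives from 0.00283 to 0.707). The 2 lower genes were Amt of glycine cleavage and Folr2, a folate receptor of macrophages, which went from 17.7 ± 1.05 to 9.92 ± 1.15 CPM (edgeR adjusted p = 0.000111), beside the lower macrophage markers given above. Aldh1l2, which oxidises formyl-folate in mitochondria, had too few counts for the main test, at 0.756, 0.147 and 0.145 CPM in normal regions and 2.28, 1.68 and 1.46 CPM in lesions, with no overlap. Its cytosolic counterpart Aldh1l1 stood at 854.2, 911.1 and 949.2 CPM in normal regions and at 754.6, 742.9 and 1084 CPM in lesions. Without lesion 3 Aldh1l1 passed as lower, at a log2 fold change of -0.27 (edgeR adjusted p = 1.01e-07, over all alternatives from 1.01e-07 to 0.951).

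In the list of serine and glycine use, the genes that passed were all lower. This list also holds Agxt, which forms glycine, and Cth of transsulfuration. Of 15 tested, 10 were lower and 5 did not pass, with a median log2 fold change of -0.58. Sds, the dehydratase that turns serine into pyruvate, fell from 188.5 ± 16.1 to 98.6 ± 31.4 CPM (log2 -0.94, edgeR adjusted p = 0.0492). Leaving out normal region 1, 2 or 3 or lesion 1 or 2 ended that call (adjusted p by edgeR from 0.0785 to 0.146), and over all alternatives its adjusted p ran from 2.35e-62 to 0.254. The related Sdsl stood at 6.11 ± 1.12 and 7.55 ± 1.38 CPM (edgeR adjusted p = 0.273). Srr, which makes D-serine, fell by 0.58 and Agxt, which passes the amino group of alanine to glyoxylate to form glycine, fell by 0.50 in log2 (edgeR adjusted p = 0.00014 and 0.000167). The transsulfuration genes, which join serine to homocysteine to make cysteine, also fell, Cbs from 307.6 ± 5.53 to 178.6 ± 10.2 CPM and Cth from 165.3 ± 4.39 to 63.8 ± 6.9 CPM (edgeR adjusted p = 3.73e-09 and 2.86e-11).

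The glycine cleavage system, which feeds mitochondrial folate from glycine, had 2 lower genes among its 4. Amt and Dld fell by 0.57 and 0.48 in log2 (edgeR adjusted p = 0.000247 and 0.000278), and Gcsh did not pass (edgeR adjusted p = 0.293). Gldc, the decarboxylase subunit, stood at 120.8, 124.1 and 122.9 CPM in normal regions and at 84.8, 89.9 and 161.6 CPM in lesions. Lesions 1 and 2 lay below and lesion 3 above every normal region, so the groups overlapped (edgeR adjusted p = 0.775). Without lesion 3 the log2 fold change of Gldc was -0.49 (edgeR adjusted p = 1.21e-09, over all alternatives from 7.46e-11 to 0.988).

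The methionine cycle takes up the methyl group that folate delivers. In a list of this cycle and neighbouring genes, 11 of 18 tested genes were lower, 2 were higher and 5 did not pass. The median was -0.30. The lower genes included Dmgdh, Sardh, Nnmt, Pemt and Aldh7a1, which lie outside the cycle proper. Gnmt, also lower, is counted in the list of serine and glycine use too. Mat1a, the methionine adenosyltransferase of adult liver, fell from 1731 ± 3.71 to 1448 ± 49.4 CPM (edgeR adjusted p = 0.000547). Mat2a, its counterpart in other tissues, and the regulatory subunit Mat2b did not pass (edgeR adjusted p = 0.804 and 0.571). Gnmt, which methylates glycine, fell by 0.68 on the log2 scale (edgeR adjusted p = 2.46e-08). Bhmt, which remethylates homocysteine from betaine without folate, fell by 0.88 on the log2 scale (edgeR adjusted p = 2.21e-10), while the folate-dependent synthase gene Mtr stood at 21.6 ± 0.951 and 20.7 ± 2.02 CPM (edgeR adjusted p = 0.733). The higher genes were Gamt of creatine synthesis (log2 0.70, edgeR adjusted p = 2.24e-07) and Mtrr, which reactivates the synthase (log2 0.52, edgeR adjusted p = 0.0108). The Mtrr call was lost without normal region 1 or lesion 1 (edgeR adjusted p = 0.0518 and 0.0668), with adjusted p from 0.00114 to 0.185 over all alternatives.

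Around Aldh18a1, of 6 tested genes of proline and ornithine metabolism 3 were lower and 3 did not pass, with a median of -0.29. Prodh, which opens proline breakdown, fell from 208.9 ± 7.02 to 104.6 ± 9.21 CPM (edgeR adjusted p = 7.77e-10), and Prodh2 did not pass (edgeR adjusted p = 0.365). The aminotransferase gene Oat, which makes the same intermediate as Aldh18a1 from ornithine, fell by 1.44 on the log2 scale, and Aldh4a1, which oxidises that intermediate, fell by 0.49 (edgeR adjusted p = 3.39e-12 and 1.52e-06). The reductase gene Pycrl, of the final synthesis step, stood at 13.1 ± 1.46 and 12.7 ± 2.03 CPM (edgeR adjusted p = 0.867).

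Purine synthesis, which spends formyl-folate at the steps of Gart and Atic, went both ways. Of 13 tested genes 6 were higher, 4 were lower and 3 did not pass, with a median of 0.03, and scaled by library size alone 3 were higher and 5 lower. Atic rose from 23.5 ± 3.19 to 34.7 ± 4.41 CPM (edgeR adjusted p = 0.000946) and Gart from 30.6 ± 3.04 to 39.4 ± 4.35 CPM (edgeR adjusted p = 0.0115). The Gart call was lost without normal region 1 (edgeR adjusted p = 0.0821) and over all alternatives its adjusted p ran from 0.00341 to 0.191. The lower genes were Paics (log2 -0.83), Adssl1 (-0.77), Ppat (-0.56) and Prps1 (-0.53), with edgeR adjusted p = 2.06e-08, 0.000241, 0.000621 and 0.00346. Ppat is the amidotransferase that commits ribose phosphate to purines, and Prps1 and Prps2 supply that phosphate. Prps2 did not pass (edgeR adjusted p = 0.718).

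Of 6 glycolytic genes around 3-phosphoglycerate 2 were higher, 2 lower and 2 did not pass, with a median of -0.02. Pgk1, which makes it, fell from 173.7 ± 8.44 to 142.5 ± 6.37 CPM (log2 -0.29, edgeR adjusted p = 0.00153). Pgam1, which drains it toward pyruvate, fell by 0.20 on the log2 scale (edgeR adjusted p = 0.03). The Pgam1 call was lost without normal region 1 or 2 or lesion 1 (edgeR adjusted p = 0.0662, 0.134 and 0.102), and ran from 0.000765 to 0.174 over all alternatives. Gapdh and Eno1 did not pass (edgeR adjusted p = 0.454 and 0.781), and Gapdh passed as lower without lesion 3 (log2 -0.13, edgeR adjusted p = 0.00622, over all alternatives from 0.00392 to 0.914). The pyruvate kinase genes Pklr and Pkm rose by 0.21 and 0.47 in log2 (edgeR adjusted p = 0.00399 and 0.00672). Scaled by library size alone, Pklr and Pkm no longer passed (edgeR adjusted p = 0.309 and 0.0546; over all alternatives from 2.1e-06 to 0.309 and from 1.17e-06 to 0.19).

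**Figure D3:**
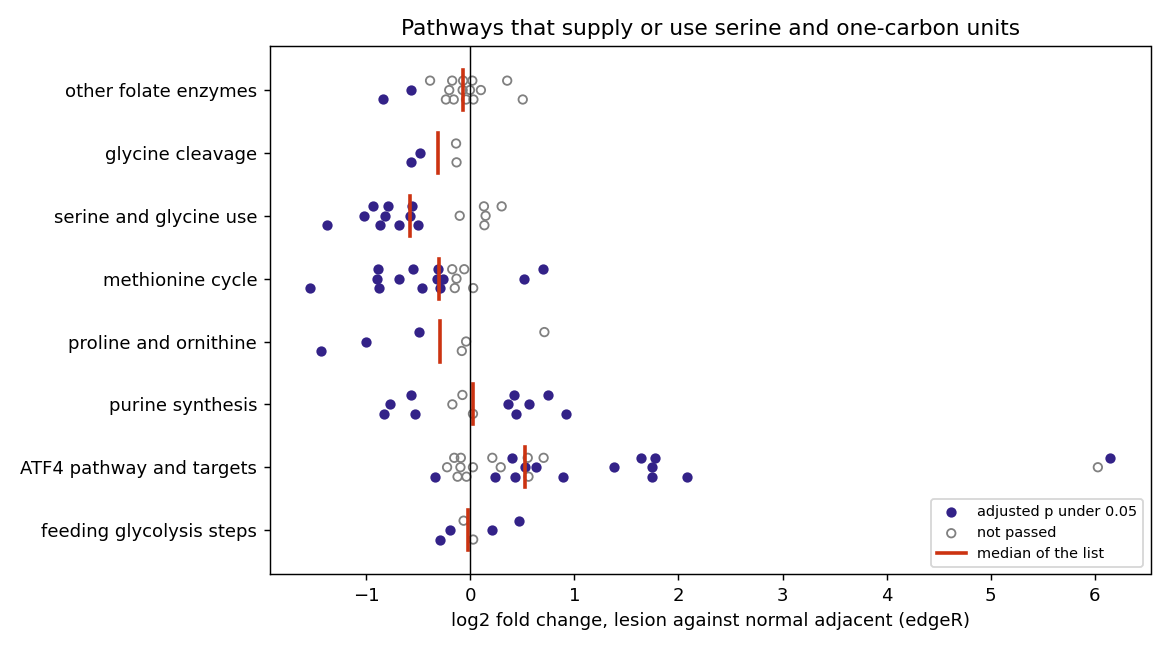
Fitted log2 fold change of every tested gene in the 8 lists, with filled points for an edgeR adjusted p under 0.05 and a red bar at each list's median. The lists named serine and glycine use and methionine cycle lie mostly left of 0 (medians of -0.58 and -0.30). The ATF4 list has its median right of it (0.53).

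ATF4, a transcription factor that the eIF2α kinases induce through translation, is known to act on Phgdh, Psat1, Mthfd2 and Aldh18a1. Of 27 tested genes of this response 13 were higher, 1 (Eif2ak1, an eIF2α kinase) was lower and 13 did not pass, with a median log2 fold change of 0.53. The higher genes include Atf4 itself and the kinase genes Eif2ak3 and Eif2ak4. Those that did not pass include Trib3, Chac1, Sesn2, Slc3a2 and Slc7a5. Scaled by library size alone, 9 were higher and 4 lower. Atf4 itself stood at 54.4, 52.6 and 56.8 CPM in normal regions and at 69.8, 62.9 and 60.6 CPM in lesions (log2 0.24, SE 0.08, edgeR adjusted p = 0.0247). The groups did not overlap, but the call was lost without normal region 1 or 2 or lesion 1 (edgeR adjusted p = 0.0739, 0.112 and 0.138), and over all alternatives the adjusted p ran from 0.00169 to 0.361. Asns, the asparagine synthetase that serves as a standard ATF4 target, rose from 8.51 ± 0.565 to 29.2 ± 3 CPM (edgeR log2 fold change 1.77, adjusted p = 2.09e-09). Atf5 rose from 118.1 ± 7.06 to 308.6 ± 45.8 CPM (edgeR adjusted p = 1.74e-06). Fgf21, a stress hormone of hepatocytes, stood at 0.151, 0.147 and 0.436 CPM in normal regions and at 20.8, 20.2 and 15.2 CPM in lesions.

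Levels in lesion 3 differed from those in lesions 1 and 2 for several genes of the response. The stress factor gene Ddit3 stood at 7.87 ± 0.685 and 9.64 ± 2.52 CPM (edgeR adjusted p = 0.257) and passed as higher without lesion 3 (edgeR adjusted p = 0.0269, over all alternatives from 0.0269 to 0.899). Atf3 stood at 1.36, 1.91 and 1.89 CPM in normal regions and at 9.97, 9.66 and 2.34 CPM in lesions, with lesion 3 close to the normal regions. Its call (edgeR adjusted p = 0.0339) did not survive leaving out normal region 1, 2 or 3 or lesion 1 or 2 (adjusted p by edgeR from 0.0548 to 0.133), and ran from 1.13e-15 to 0.208 over all alternatives. Slc1a4, a carrier of serine and other small neutral amino acids, rose from 4.23, 2.5 and 5.23 CPM to 12.3, 10.4 and 17.9 CPM (edgeR adjusted p = 0.000101). The cystine carrier gene Slc7a11 stood at 0.605, 0.734 and 0.872 CPM in normal regions and at 10.5, 7.56 and 130.8 CPM in lesions. Lesion 3 was far above the others there, the reverse of its place for Phgdh and Psat1. Slc7a11 did not pass (edgeR adjusted p = 0.118), but passed without lesion 3 (log2 3.58, edgeR adjusted p = 1.13e-14) and, with all 6 libraries, without robust dispersion (edgeR adjusted p = 0.00257) and on log2(FPKM + 0.1) (limma adjusted p = 0.0253). Over all alternatives its adjusted p ran from 1.07e-20 to 0.447.

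The genes whose profile over the 6 libraries was closest to the mean of Phgdh and Psat1 were Fgf21, Egr1, Sult4a1, Shc2 and Rims2. Likeness was the root mean square distance between log2 CPM differences from the normal mean, with 0.5 CPM added, over 11854 candidate genes. It was 0.312 for Fgf21, 0.449 for Egr1, 0.495 for Sult4a1, 0.551 for Shc2 and 0.616 for Rims2. The median over the candidates was 3.21. Phgdh and Psat1 lay 0.577 from each other, and each lay 0.289 from their mean because they alone make it up. That mean carries the step between groups that chose both genes, so a gene without the step lies far from it. These distances are a description and test nothing. The measure takes in the step between the groups as well as the order within them, and all profiles share the same libraries. Sult4a1, a sulfotransferase gene known from brain, stood at 0, 0 and 0.145 CPM in normal regions and at 8.83, 10.1 and 4.1 CPM in lesions. Egr1, an immediate early transcription factor, was the only one of the 5 with a clear normal level, at 11.2, 11.7 and 9.73 CPM, and stood at 274.9, 282.4 and 230.3 CPM in lesions. Rims2, of neurotransmitter release, stood at 0.151, 0.294 and 0.291 CPM in normal regions and at 22.8, 21.7 and 3.07 CPM in lesions, with lesion 3 well below the others.

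**Figure D4:**
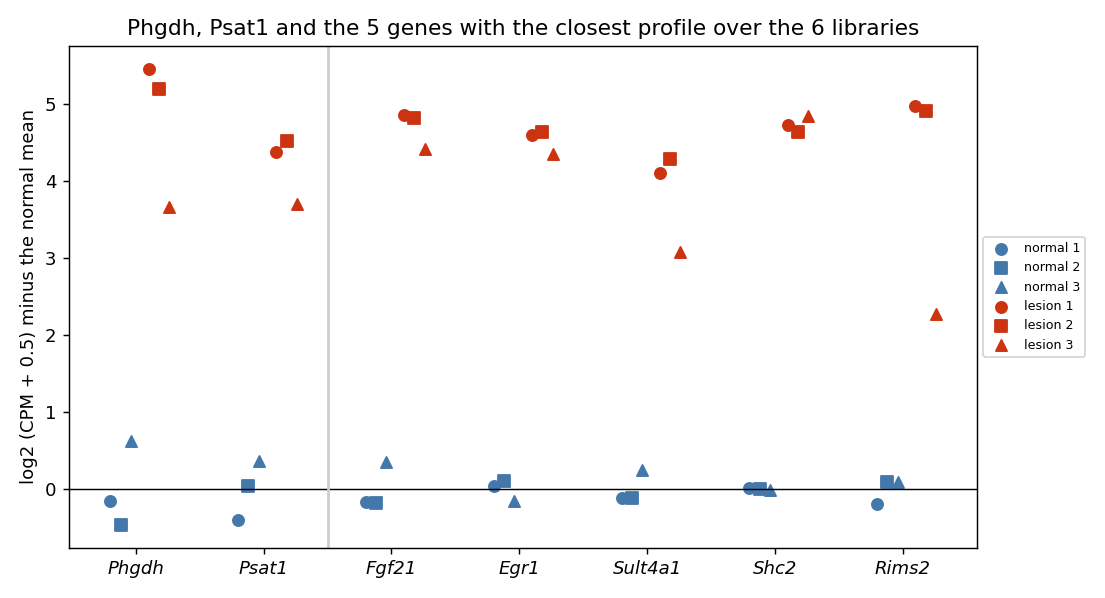
Difference of every library from the mean of the 3 normal libraries, as log2 of CPM plus 0.5, for Phgdh, Psat1 and the 5 genes with the closest profile, with normal regions in blue and lesions in red. Lesion 3 (red triangles) is below lesions 1 and 2 in every gene shown except Shc2, where it stood at 22.4 CPM against 20.7 and 19.3.

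The authors' deposited table of the same comparison gave log2 fold changes of 5.95 for Phgdh, 5.05 for Psat1, 1.96 for Psph, 2.05 for Mthfd1l, 1.44 for Mthfd2, 2.29 for Aldh18a1 and -0.35 for Mthfd1. In the authors' deposited table Shmt1 was at 0.11, Shmt2 at 0.06 and the untested Mthfd2l at 0.33.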

How the data were processed

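Liver regions were profiled by sequencing of RNA depleted of ribosomal RNA, with libraries from about 500 ng and 15 cycles of PCR, per the labels' protocols. The tools that the submitters' processing notes name, with no role or order, are STAR 2.5.2b, DESeq2 1.24.0, CASAVA 1.8 and cutadapt 1.18, and the build is mm10. How reads were counted, and whether by strand, is not given in the sources used here. For each Entrez gene the authors deposited a whole-number count. The authors also deposited FPKM, which scale each count by gene length and by library. Across libraries the FPKM of the members kept a near-constant ratio to TMM-scaled CPM. Their library scaling therefore lay near TMM and not at library size alone. Per the file headers, the authors' own comparison came as log2 fold changes, a mean signal over scaled counts, a test score and p-values.

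Counts were scaled by TMM and tested with edgeR 4.0.16 (R 4.3.3), quasi-likelihood and two-sided, with robust dispersion, group as the only term, and the default expression filter. Adjustment was by Benjamini-Hochberg across the 12506 genes tested, with 0.05 as the threshold. The SE is the fold change divided by the root of F. Levels are TMM-scaled CPM or FPKM, as mean ± SD over 3 libraries. The fit was also run on counts simulated from the normal means and its own dispersions. Such counts cannot show how it behaves with a library like lesion 3.

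The members, the lists and the tests were chosen with earlier results of these data known. The text names all members, the first 4 tested genes of each pathway list, Asns and Fgf21, and the 5 closest profiles; other genes were named after their values were seen, and a few genes under the rule are not reported here. Promoters and coordinates are RefSeq's for GRCm38.p6. Alternatives were other scalings, filters, tools (DESeq2 1.42.0, limma 3.58.1), FPKM with pseudocounts of 1 and 0.1, the replicate block, and libraries left out or summed. The labels do not say that a replicate number marks a mouse, so the numbers were not used as pairs. Deviations of lesion and normal regions with the same number did not correlate (r = 0.0166, -0.025 and -0.0203). This does not show that such regions came from different mice.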

Additional observations from a re-analysis of the deposited data

How the results depend on the processing

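Of 207 log2 fold changes of the 9 tested members under 23 alternatives, 195 stayed on their side of the threshold, 10 lost it and 2 gained it. No member that passed changed direction, while Shmt1 and Shmt2, which did not pass, turned negative on library size alone (-0.03 and -0.08), and Shmt2 also without lesion 3 and without replicate 3 of both groups (-0.02 in each). Phgdh lost its call in 7 of these: without normal region 1, 2 or 3, and without replicate 1 or 2 of both groups. The rest were limma-voom and the closest libraries summed. Without replicate 2 of both groups Mthfd1 and Mthfd2 also lost theirs (edgeR adjusted p = 0.0963 and 0.0671). Mthfd1 lost it too with the closest libraries summed (edgeR adjusted p = 0.0871). The count of higher members, 6, ran from 4 to 7 with libraries left out, and the count of lower members, 1, from 0 to 1; the latter was 0 with the closest libraries summed and when a log2 fold change of at least 1 was required. With the closest libraries summed, the mitochondrial folate median was 0.89, with Mthfd2l included. The serine synthesis median, 5.01, ran from 4.64 to 5.61 with libraries left out and was 2.80 on log2(FPKM + 1), filtered or not, as a pseudocount shrinks low genes. The cytosolic median, -0.12, was -0.26 on library size alone. The mitochondrial median, 1.43, ran from 1.20 to 1.8 with libraries left out, was 1.30 on library size alone and 0.74 on log2(FPKM + 1), and with Mthfd2l included was 0.87 without a count filter, 0.88 with DESeq2 and 0.42 on unfiltered FPKM.

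Over all genes, 2340 were higher and 2296 lower. These counts ran from 1349 to 2798 and from 1352 to 2796 with libraries left out. On library size alone they were 1474 and 3615, with the median of all genes at -0.14. At an adjusted p under 0.01 the higher count was 1548, and with a log2 fold change of at least 1 they were 541 and 303. Of the pathway genes, 23 were higher (12 to 28 with libraries left out, 13 on library size alone, 7 at that fold change) and 33 lower (28 to 41 with libraries left out, 4 at that fold change). On the forward strand alone, 0 members held the antioxidant letters. With the replicate block, 6 members were higher and 1 lower, and 2293 and 2233 of all genes; the block changed the call of no member, and brought Slc7a11 past the threshold (adjusted p = 0.00137). Single-digit counts limit Phgdh, Psat1 and Mthfd2l in normal regions, and Mthfd2 had 7, 8 and 12 counts there.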
